A study of Mus musculus with 9 samples.

Results

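The genes described here are 49 genes of the antioxidant programme that the transcription factor NRF2 governs: its regulators, its classical targets, and the enzymes of glutathione, thioredoxin, superoxide, peroxide and NADPH metabolism. They were chosen by gene symbol from a named list, and a gene counted as a member when its FPKM (a count of fragments scaled by transcript length and library depth) reached 1 in at least 3 of 9 libraries. All 49 listed symbols were found among 18984 genes and all 49 reached that level, as did 13761 genes overall. RNA was sequenced from whole lung of C57BL/6 mice 24 h after material was placed in the trachea. Control mice received normal saline, conidia mice received intact spores of the mold Aspergillus fumigatus, and hyphae mice received pieces of its filaments; each group had 3 libraries. Age, sex, dose and fungal strain are not given in the sources used here, and no group carries a stated genetic change. Whether each library stands for its own animal is not stated in the labels, so p-values here reflect the spread from library to library, which may be technical. In bulk lung RNA, fewer cells of a type and less RNA per cell cannot be told apart.

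NRF2, encoded by Nfe2l2, is held in the cytoplasm and marked for destruction by KEAP1; oxidants and electrophiles modify KEAP1, and NRF2 then enters the nucleus, pairs with a small MAF protein and binds antioxidant response elements. BACH1 competes with NRF2 for the same DNA, and p62 (Sqstm1) can take KEAP1 out of action. The targets make and recycle glutathione, keep thioredoxin reduced, detoxify electrophiles and supply NADPH, and in the lung they protect airway and alveolar cells, macrophages and neutrophils against oxidants. Much of the control of NRF2 is at the level of its protein, which RNA does not show.

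The 9 libraries held summed FPKM between 492500 and 561300, and the 49 members took between 1.15% and 1.61% of that sum. Alveolar type 2 and type 1 cell markers were present in every library, with summed FPKM between 16422 and 31322 for 10 type 2 markers and between 2118 and 3538 for 9 type 1 markers. Across all 13761 genes tested, the median log2 difference was -0.37 for hyphae against control, -0.29 for hyphae against conidia and -0.07 for conidia against control. Hyphae differences of members are therefore given as deposited and after rescaling each library by median-of-ratios size factors, which centers the median gene near 0. For genes outside the member list the deposited difference is given. Apart from Cbr2, whose call was lost after rescaling, 22 such genes are named as called in hyphae against control. All 22 kept the call and its direction after rescaling (largest limma adjusted p 0.0468, Ggt6). Most of these were named for the largest differences of their list, so this does not describe the rest of each list. Library 2 of the conidia group had the lowest sum of 14 neutrophil markers in its group, 2078 FPKM against 12631 and 8070, and library 1 of the hyphae group had the lowest in its own, 1429 against 4309 and 8560. Control sums of those markers were 268 to 377 FPKM. A single marker, Lcn2, weighs heavily in these sums, with means of 173, 5480 and 1791 FPKM in control, conidia and hyphae. The order of the libraries without it is not given here.

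In hyphae against control, 11 members rose and 15 fell (limma, adjusted p under 0.05 over all genes tested), against 14.9% of all tested genes higher and 50.0% lower. After rescaling, 17 members were higher and 4 lower, against 30.0% and 29.3% of all genes; the 11 that rose were all among the 17, and the 4 lower were Nfe2l2, Prdx2, Gpx8 and Cat. The median member differed by -0.23 as deposited and by 0.20 rescaled, beside -0.37 for all genes as deposited. In conidia against control, 1 member (Gsr) rose and 0 fell, against 0.596% of all genes higher and 0.0945% lower; rescaled, 0 of 49 were called, against 0.298% and 0.0436%. At an unadjusted limma p under 0.05 the counts were 12 members higher and 6 lower, 18 of 49, beside 2909 of 13761 genes in either direction. The median member differed by 0.10 in that comparison, beside -0.07 for all genes, and 28 of 49 members had a positive difference. In hyphae against conidia, 7 members rose and 12 fell, against 12.7% of all genes higher and 42.5% lower; rescaled, 11 were higher and 2 lower, against 25.4% in each direction. The comparisons share libraries, so their values are given side by side and not correlated. Of the 26 members called in hyphae against control, 12 kept their call in all 16 alternative fits: Nfe2l2, Bach1, Sqstm1, Hmox1, Srxn1, Osgin1, Gclc, Gsr, Txnrd1, Prdx2, Gpx8 and Cat.

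**Figure D1:**
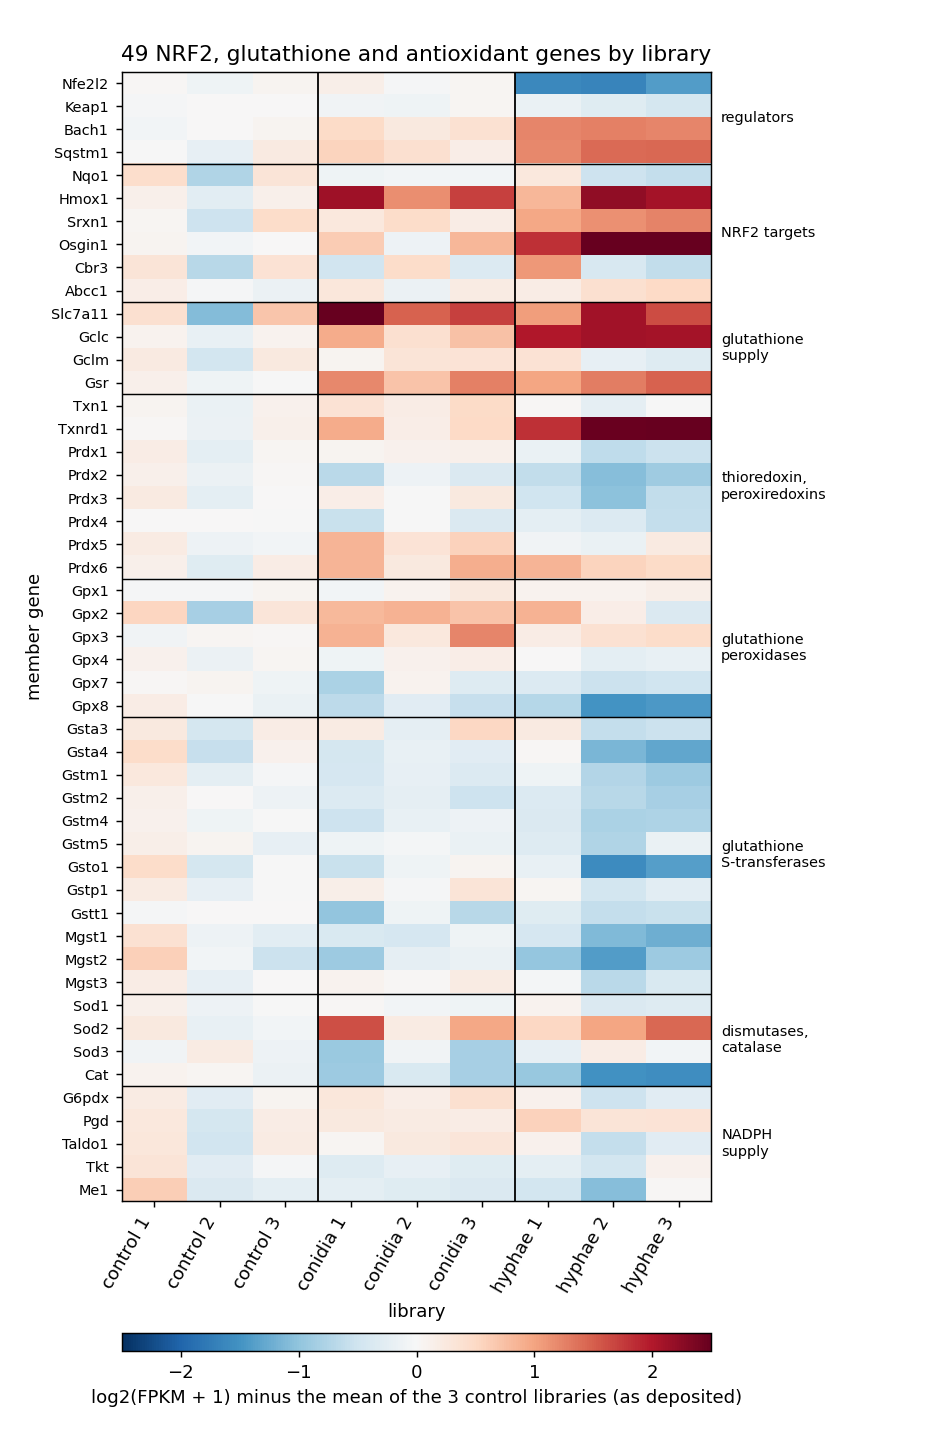
Each row is a member and each column a library; color shows the difference of log2(FPKM + 1) from the mean of the 3 control libraries, and differences beyond 2.5 in either direction have the end color. Osgin1, Txnrd1 and Gclc are raised in all 3 hyphae columns, and Nfe2l2, Cat and Gpx8 are lowered there.

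The RNA for NRF2 itself was lower in hyphae-treated lungs, while that of its competitor Bach1 and of Sqstm1 was higher. Nfe2l2 measured 99.3, 90.9 and 102 FPKM in control, 107, 95.9 and 101 in conidia and 31.2, 30.5 and 36.3 in hyphae libraries 1, 2 and 3. The 3 hyphae libraries were all far below the other 6, and control and conidia overlapped. Nfe2l2 fell by 1.55 ± 0.10 (SE, log2 scale of FPKM + 1, n = 3 per group) against control (limma adjusted p 2.06e-05; rescaled -1.13, adjusted p 0.000137) and fell by 1.61 against conidia (adjusted p 2.56e-05; rescaled -1.28). Against control, conidia differed by 0.06 (95% interval -0.18 to 0.30). Keap1, the adaptor that presents NRF2 for ubiquitination, measured 20.6, 21.1 and 21.2 FPKM in control, 19.6, 19.4 and 21.8 in conidia and 18.5, 16.8 and 15.2 in hyphae libraries 1, 2 and 3. Hyphae libraries lay just below all the others as deposited. That difference, -0.31 against control (adjusted p 0.016), became 0.10 after rescaling (adjusted p 0.342), so the fall of Keap1 was not larger than the shift of the median gene.

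Bach1, the repressor that occupies the same elements, measured 12.0, 12.7 and 13.2 FPKM in control, 18.0, 15.1 and 16.7 in conidia and 30.9, 31.7 and 30.7 in hyphae libraries 1, 2 and 3. The libraries of the 3 groups did not overlap: control was lowest, conidia intermediate and hyphae highest. Bach1 rose by 1.24 ± 0.09 in hyphae against control (adjusted p 2.43e-05; rescaled 1.65) and by 0.87 against conidia (adjusted p 0.000111; rescaled 1.19), while its conidia difference of 0.37 had an adjusted p of 0.0838. Sqstm1, a selective autophagy receptor that binds KEAP1, measured 163, 142 and 191 FPKM in control, 242, 217 and 185 in conidia and 377, 439.6 and 447 in hyphae libraries 1, 2 and 3. All hyphae libraries were above all others, and conidia and control overlapped. Sqstm1 rose by 1.35 ± 0.14 against control (adjusted p 0.000106; rescaled 1.78) and by 0.97 against conidia (adjusted p 0.000655; rescaled 1.30).

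The regulators' values were also put as ratios of FPKM within each library, which do not depend on library scaling. These ratios restate the values above and are not a further test. They were chosen after the values were seen, and 3 libraries against 3 cannot give an exact two-sided p below 0.1. Nfe2l2 to Bach1 was 8.27, 7.18 and 7.74 in control, 5.94, 6.36 and 6.06 in conidia and 1.01, 0.962 and 1.18 in hyphae libraries. Nfe2l2 to Keap1 was 4.81, 4.31 and 4.83 in control, 5.46, 4.94 and 4.63 in conidia and 1.69, 1.82 and 2.38 in hyphae libraries. Both ratios were lowest in the 3 hyphae libraries, with no overlap.

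**Figure D2:**
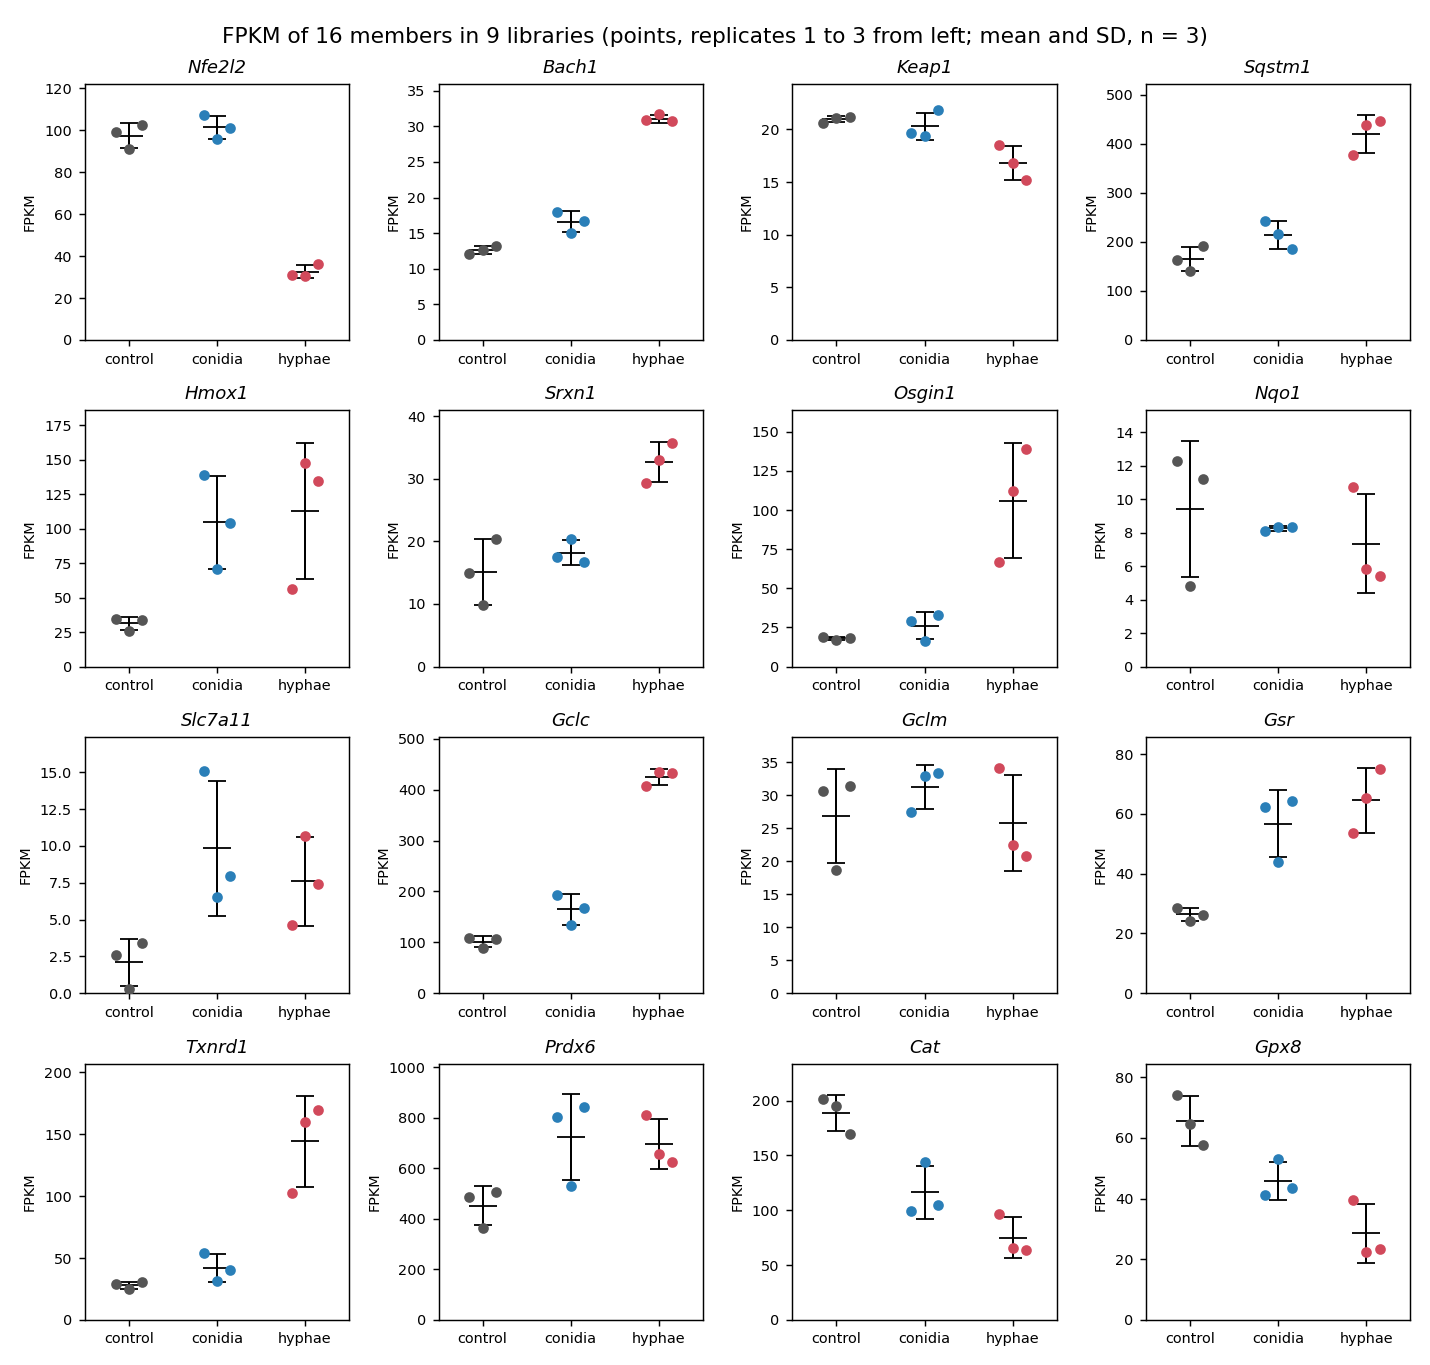
FPKM of selected members in each library (points, linear axes from 0), with the mean and SD of each group of 3. Gclc, Txnrd1 and Osgin1 are highest in the 3 hyphae libraries, whereas Hmox1 and Gsr are raised in conidia and hyphae libraries alike.

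Among 15 tested partners and controllers of NRF2 that are not members (a list of MAF and related factors and of the ubiquitin machinery), 6 rose and 3 fell in hyphae against control, 8 and 3 after rescaling. Of all tested genes, 14.9% rose and 50.0% fell, and 30.0% and 29.3% did after rescaling. Group means in control, conidia and hyphae were 14.7, 31.1 and 117 FPKM for Maff, a small MAF partner, which rose by 2.85 (adjusted p 0.000167). Mafk, another small MAF, had means of 27.7, 39.0 and 102 and rose by 1.83 (adjusted p 0.000113). The remaining small MAF gene Mafg, named after its values were seen, had means of 22.7, 25.9 and 39.4 and rose by 0.77 (adjusted p 0.000154). Small MAF proteins serve BACH1 as well as NRF2. Nfe2l3, a relative of NRF2, fell by 1.35 (means 3.43, 2.38 and 0.787; adjusted p 0.00124) and Btrc, a ubiquitin ligase subunit that acts on NRF2, fell by 1.09 (means 7.41, 6.32 and 2.99; adjusted p 0.000271). Against conidia, 6 of the 15 rose and 5 fell in hyphae, beside 12.7% and 42.5% of all genes. In conidia against control 0 of 15 were called.

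In hyphae-treated lungs, glutathione genes rose for cystine import, for the catalytic part of the first synthetic step and for recycling, while the modifier subunit of that step was not called. Gclc, the catalytic subunit of glutamate-cysteine ligase, which makes the glutathione precursor, measured 108, 89.2 and 107 FPKM in control, 194, 134 and 168 in conidia and 407, 435 and 433 in hyphae libraries 1, 2 and 3. The groups did not overlap, with conidia intermediate and hyphae highest. Gclc rose by 2.06 ± 0.14 in hyphae against control (adjusted p 2.43e-05; rescaled 2.49) and by 1.37 against conidia (adjusted p 0.000129; rescaled 1.71); in conidia against control it differed by 0.69 with an adjusted p of 0.065. Gclm, the modifier subunit that makes the enzyme more efficient, measured 30.6, 18.7 and 31.3 FPKM in control, 27.4, 32.9 and 33.3 in conidia and 34.1, 22.5 and 20.8 in hyphae libraries 1, 2 and 3. All 3 groups overlapped, and hyphae differed from control by -0.05 (95% interval -0.62 to 0.51; adjusted p 0.85; rescaled 0.36, adjusted p 0.164). The ratio of Gclc to Gclm was 3.54, 4.79 and 3.43 in control, 7.07, 4.06 and 5.05 in conidia and 11.9, 19.4 and 20.8 in hyphae libraries. Every hyphae ratio exceeded every other.

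Slc7a11, the cystine transporter subunit of system xc-, measured 2.59, 0.280 and 3.40 FPKM in control, 15.1, 6.53 and 7.94 in conidia and 4.64, 10.7 and 7.42 in hyphae libraries 1, 2 and 3. Conidia and hyphae libraries were above all control libraries and overlapped each other, and control library 2 stood far below the other controls. Slc7a11 rose by 1.59 ± 0.49 in hyphae against control (adjusted p 0.018; rescaled 1.92); without hyphae library 2 that call was lost (1.05, adjusted p 0.0676). The conidia difference was 1.91 ± 0.49 with an adjusted p of 0.0938. Gsr, glutathione reductase, which returns oxidized glutathione to its reduced form, measured 28.7, 24.3 and 26.1 FPKM in control, 62.2, 43.9 and 64.2 in conidia and 53.5, 65.3 and 75.1 in hyphae libraries 1, 2 and 3. Conidia and hyphae libraries were all above control and overlapped each other. Gsr rose in both comparisons with control, by 1.06 ± 0.17 for conidia (adjusted p 0.0416) and by 1.25 ± 0.17 for hyphae (adjusted p 0.000298; rescaled 1.67). The conidia call of Gsr is close to the threshold: rescaling gave 1.15 with adjusted p 0.0583, and the call was lost without any of control libraries 1, 2 or 3, conidia libraries 1 or 3, or hyphae library 2.

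In a list of 10 other genes of glutathione synthesis and turnover, 1 rose and 3 fell in hyphae against control (3 and 3 rescaled). The shares of all tested genes were 14.9% higher and 50.0% lower (30.0% and 29.3% rescaled). Slc3a2, the heavy chain that pairs with Slc7a11, had group means of 129, 196 and 209.8 FPKM in control, conidia and hyphae and rose by 0.70 in hyphae (adjusted p 0.00047) and by 0.60 in conidia (adjusted p 0.047; rescaled adjusted p 0.0565). Chac2, a glutathione-degrading enzyme, fell by 1.38 (means 3.68, 3.51 and 0.817; adjusted p 0.00023). Ggt6, of the gamma-glutamyltransferase family, fell by 1.02 (means 2.71, 2.55 and 0.910; adjusted p 0.0161). Against conidia, 0 of the 10 rose and 5 fell in hyphae (2 and 4 rescaled), beside 12.7% and 42.5% of all genes (25.4% in each direction rescaled).

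The classical targets divided: Hmox1, Srxn1 and Osgin1 rose in hyphae-treated lungs, and Nqo1 and Cbr3 overlapped between groups. Hmox1, heme oxygenase, which degrades heme and which BACH1 represses, measured 34.3, 26.0 and 34.1 FPKM in control, 139, 71.1 and 105 in conidia and 56.1, 148 and 134 in hyphae libraries 1, 2 and 3. Conidia and hyphae libraries were all above control and overlapped each other; library 1 was the lowest of the hyphae group. Hmox1 rose by 1.70 ± 0.37 in hyphae against control (adjusted p 0.0034; rescaled 2.13). In conidia it differed by 1.66 ± 0.37 with an adjusted p of 0.0759. Hyphae against conidia gave 0.04 (95% interval -0.86 to 0.94; rescaled 0.37, adjusted p 0.482). Erythroid marker sums, a measure of red cell RNA, overlapped between the groups, at 2321 to 18473 FPKM in control, 7660 to 9069 in conidia and 8895 to 17266 in hyphae libraries (10 of 11 markers in the files, 6 tested, 0 called by limma in any comparison); their part in the Hmox1 result was not tested.

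Srxn1, sulfiredoxin, which repairs over-oxidized peroxiredoxins, measured 15.0, 9.87 and 20.4 FPKM in control, 17.5, 20.4 and 16.7 in conidia and 29.3, 33.0 and 35.7 in hyphae libraries 1, 2 and 3. Hyphae libraries were all above the other 6, while conidia and control overlapped. Srxn1 rose by 1.12 ± 0.22 against control (adjusted p 0.00194; rescaled 1.53) and by 0.81 against conidia (adjusted p 0.0119; rescaled 1.13). Osgin1, an oxidative stress-induced growth inhibitor, measured 19.2, 17.3 and 18.2 FPKM in control, 28.9, 16.5 and 33.2 in conidia and 66.9, 112 and 139 in hyphae libraries 1, 2 and 3. The hyphae libraries were all above the others, with the widest spread of the 3 groups. Osgin1 had the largest rise of the members in hyphae against control, 2.41 ± 0.30 (adjusted p 0.000211; rescaled 2.83), and rose by 1.97 against conidia (adjusted p 0.00077; rescaled 2.30).

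Nqo1, a quinone reductase widely used as a readout of NRF2 activity, measured 12.3, 4.79 and 11.2 FPKM in control, 8.10, 8.33 and 8.37 in conidia and 10.7, 5.86 and 5.44 in hyphae libraries 1, 2 and 3. The groups overlapped, with control library 2 below the other controls and hyphae library 1 above the other hyphae libraries. Its difference was -0.29 in hyphae against control (95% interval -1.08 to 0.51; adjusted p 0.462; rescaled 0.09) and -0.08 in conidia (95% interval -0.88 to 0.72). Cbr3, a carbonyl reductase, had group means of 18.4 ± 6.89, 16.8 ± 6.64 and 20.7 ± 15.1 FPKM (SD, n = 3) and also overlapped in every comparison. Abcc1, a transporter that exports glutathione conjugates, had means of 8.68, 9.48 and 11.4 FPKM; its hyphae difference of 0.36 had an adjusted p of 0.0513 as deposited and was called higher after rescaling (0.75, adjusted p 0.00494).

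Of 30 tested NRF2 targets outside the member list, 2 rose and 14 fell in hyphae against control, 7 and 6 after rescaling. The shares of all tested genes were 14.9% higher and 50.0% lower, and 30.0% and 29.3% after rescaling. Akr1b8, an aldo-keto reductase, rose by 0.77 (means 22.1, 40.2 and 38.3 FPKM; adjusted p 0.0027), and Ugt1a7c, a glucuronosyltransferase, rose by 0.71 (means 1.94, 3.03 and 3.79; adjusted p 0.0171). Cbr1, a carbonyl reductase, fell by 1.41 (means 55.8, 39.8 and 21.4; adjusted p 0.00127), and Nqo2, a relative of Nqo1, fell by 1.28 (means 9.85, 7.83 and 3.49; adjusted p 0.000255). The 1 gene of this list called in conidia was the club cell reductase Cbr2, named after its values were seen, which fell by 1.41 (means 7162, 2732 and 3858; adjusted p 0.047). In hyphae against control Cbr2 differed by -0.92 (limma adjusted p 0.0100), a call lost after rescaling (-0.49, adjusted p 0.071). Against conidia, 0 of the 30 rose and 8 fell in hyphae (6 and 6 rescaled), beside 12.7% and 42.5% of all genes (25.4% in each direction rescaled).

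Among thioredoxin and peroxiredoxin genes, the reductase Txnrd1 had the largest rise in hyphae against control. Txnrd1, the cytosolic selenoprotein that reduces thioredoxin, measured 28.7, 25.1 and 30.6 FPKM in control, 54.2, 31.8 and 40.3 in conidia and 102, 160.3 and 169.7 in hyphae libraries 1, 2 and 3. All conidia libraries were above control and all hyphae libraries above both. Txnrd1 rose by 2.29 ± 0.23 in hyphae against control (adjusted p 8.79e-05; rescaled 2.71) and by 1.75 against conidia (adjusted p 0.00038; rescaled 2.08), and its conidia difference was 0.54 (adjusted p 0.225). Txn1, its substrate thioredoxin, had group means of 162 ± 16.7, 206 ± 20.4 and 155 ± 14.4 FPKM (SD, n = 3). Hyphae against control gave -0.06 (adjusted p 0.655) as deposited and 0.36 (adjusted p 0.0359) rescaled; against conidia, hyphae values fell by 0.40 (adjusted p 0.0198), and after rescaling that difference was -0.07 with an adjusted p of 0.667. The ratio of Txnrd1 to Txn1 was 0.168, 0.175 and 0.177 in control, 0.262, 0.172 and 0.179 in conidia and 0.618, 1.16 and 1.06 in hyphae libraries. Txnrd1 to its mitochondrial counterpart Txnrd2 was 4.46, 3.56 and 4.60 in control, 13.0, 4.89 and 7.18 in conidia and 28.0, 48.0 and 48.9 in hyphae libraries. In both ratios every hyphae library lay above every other.

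**Figure D3:**
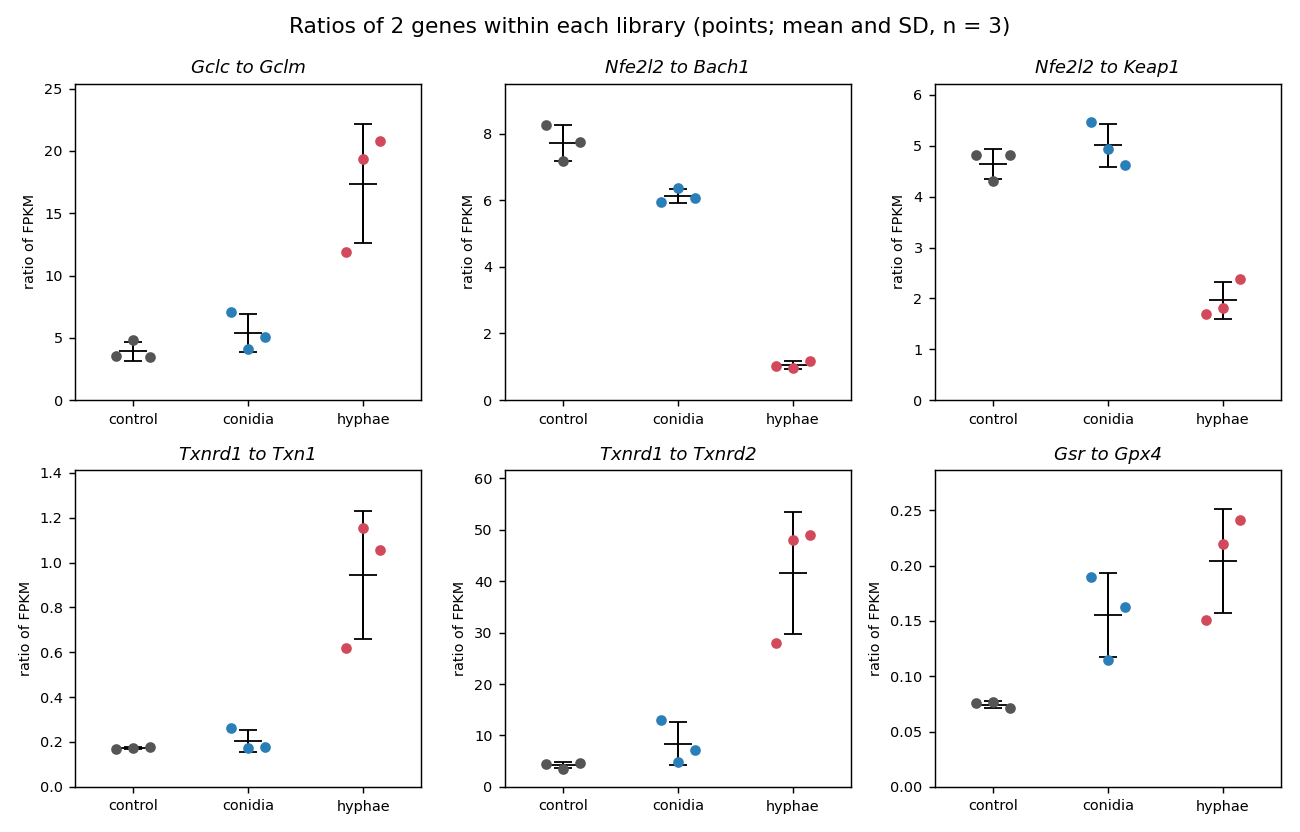
Ratios of the FPKM of 2 genes within each library (points), with the mean and SD of each group of 3; linear axes from 0. Hyphae libraries lie apart from the others in the ratios of Gclc to Gclm, Nfe2l2 to Bach1, Nfe2l2 to Keap1, Txnrd1 to Txn1 and Txnrd1 to Txnrd2, and overlap conidia in the ratio of Gsr to Gpx4.

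The start-site sequences of 4 targets are shown because they carry the elements through which NRF2 and the related AP-1 factors bind, and because Srxn1, Osgin1 and Txnrd1 rose while Gclm was not called; the 4 were chosen after the values were seen. Sequences are the 250 bases before the start in RefSeq (GRCm38.p6, a later build than the mm9 of the files), 5′ to 3′ along the gene, with the motif in capitals. Capitals mark TGANTCA (AP-1 element) in Srxn1 and Osgin1, and the core TGACNNNGC (antioxidant response element), read on the opposite strand, in Txnrd1 and Gclm. The regions are chr2:152105274-152105523 for Srxn1, chr8:119436897-119437146 for Osgin1, chr10:82858956-82859205 for Txnrd1 (1 of 3 starts) and chr3:122245307-122245556 for Gclm, all on the plus strand.
Srxn1: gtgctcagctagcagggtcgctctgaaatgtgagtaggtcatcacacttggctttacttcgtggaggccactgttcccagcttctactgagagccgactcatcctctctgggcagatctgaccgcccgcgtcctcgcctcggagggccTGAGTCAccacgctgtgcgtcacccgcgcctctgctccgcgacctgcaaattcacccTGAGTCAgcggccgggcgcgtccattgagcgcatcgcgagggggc
Osgin1: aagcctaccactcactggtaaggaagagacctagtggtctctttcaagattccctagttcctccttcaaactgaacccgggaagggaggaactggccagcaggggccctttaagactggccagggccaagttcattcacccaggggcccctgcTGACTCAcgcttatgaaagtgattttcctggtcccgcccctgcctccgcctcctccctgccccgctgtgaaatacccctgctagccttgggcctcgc
Txnrd1: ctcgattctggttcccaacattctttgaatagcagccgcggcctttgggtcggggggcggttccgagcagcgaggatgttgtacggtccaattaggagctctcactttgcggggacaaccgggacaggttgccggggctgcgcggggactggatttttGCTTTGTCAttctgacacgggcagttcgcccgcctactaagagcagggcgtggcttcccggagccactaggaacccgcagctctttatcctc
Gclm: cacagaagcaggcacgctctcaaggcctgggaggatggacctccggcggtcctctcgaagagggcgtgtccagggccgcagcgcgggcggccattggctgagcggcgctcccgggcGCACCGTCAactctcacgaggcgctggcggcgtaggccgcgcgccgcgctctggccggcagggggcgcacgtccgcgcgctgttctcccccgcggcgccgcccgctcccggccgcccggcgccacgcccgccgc
Srxn1 held TGAGTCA at 102 and 45 bases before the start, and Osgin1 held TGACTCA at 97. Txnrd1 held TGACAAAGC at 92 bases and Gclm TGACGGTGC at 134. RefSeq start sequences were matched for 42 of the 49 members (52 starts); Hmox1, Abcc1, Gclc, Gsr, Prdx6, Gsta4 and Sod3 were not matched. Both strands of the 250 bases before each start were searched. TGACNNNGC was in 9 of 42 members (21.4%), beside 11.5% of 27025 genes, and TGANTCA was in 6 of 42 (14.3%), beside 7.82%. The 9 were G6pdx, Gclm, Gsta3, Gstm5, Mgst1, Nfe2l2, Prdx1, Sod1 and Txnrd1; they held 1 of the 7 matched members that rose in hyphae against control, 4 of the 15 that fell and 4 of the 20 not called. Prdx1 alone held a site where both motifs coincide. A match describes these letters and not binding, and elements farther from the start lie outside the window.

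The peroxiredoxins, which reduce peroxides with electrons from thioredoxin or glutathione, moved in both directions. Prdx6, the member that uses glutathione and also handles lung phospholipid, had means of 452 ± 78.0, 724 ± 171 and 697 ± 99.3 FPKM (SD, n = 3). It rose by 0.63 in hyphae against control (adjusted p 0.0235; rescaled 1.06), a call lost without control library 2 or hyphae library 1 (largest adjusted p 0.0874), and its conidia difference of 0.66 had an adjusted p of 0.132. Prdx3, the mitochondrial member, measured 40.2, 28.6 and 34.6 FPKM in control, 38.7, 34.1 and 40.6 in conidia and 23.9, 16.3 and 21.8 in hyphae libraries 1, 2 and 3. Hyphae libraries were below all others. Prdx3 fell by 0.72 against control (adjusted p 0.00424), which rescaling reduced to -0.30 (adjusted p 0.13), and fell by 0.85 against conidia (adjusted p 0.00228), where the call held after rescaling (-0.53, adjusted p 0.0205). Prdx2, abundant in red cells, had means of 75.4, 57.7 and 41.5 FPKM and fell by 0.85 in hyphae against control on deposited values (adjusted p 0.00174) and fell by 0.43 rescaled (adjusted p 0.0164). Prdx1, the main cytosolic member, had means of 237, 251 and 174 and Prdx4, of the endoplasmic reticulum, 33.2, 26.9 and 25.1. Both fell in hyphae against control as deposited (-0.45 and -0.40); rescaled, they differed by -0.02 and 0.02, and neither was called. Prdx5, found in several compartments, had means of 147, 222 and 146 and fell in hyphae against conidia (-0.60, adjusted p 0.0117; rescaled -0.27, adjusted p 0.258), while its conidia libraries were all above control (0.59, adjusted p 0.108).

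In the list of 19 other thioredoxin, glutaredoxin and repair genes, 5 rose and 9 fell in hyphae against control (8 and 4 rescaled), and 6 rose and 7 fell against conidia (8 and 2 rescaled). Of all tested genes, 14.9% rose and 50.0% fell against control (30.0% and 29.3% rescaled). Against conidia those shares were 12.7% and 42.5% (25.4% in each direction rescaled). Sesn1, a stress-responsive sestrin, rose by 2.43 (means 19.5, 17.7 and 112 FPKM; adjusted p 2.91e-05). Txnip, which binds and inhibits thioredoxin, rose by 2.22 (means 239.7, 352 and 1137; adjusted p 3.1e-05). Msrb2, a methionine sulfoxide reductase, fell by 1.27 (means 12.0, 8.86 and 4.47; adjusted p 0.000665), and nucleoredoxin, Nxn, fell by 0.89 (means 10.8, 8.25 and 5.39; adjusted p 0.000341). In conidia against control 0 of the 19 were called by limma.

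**Figure D4:**
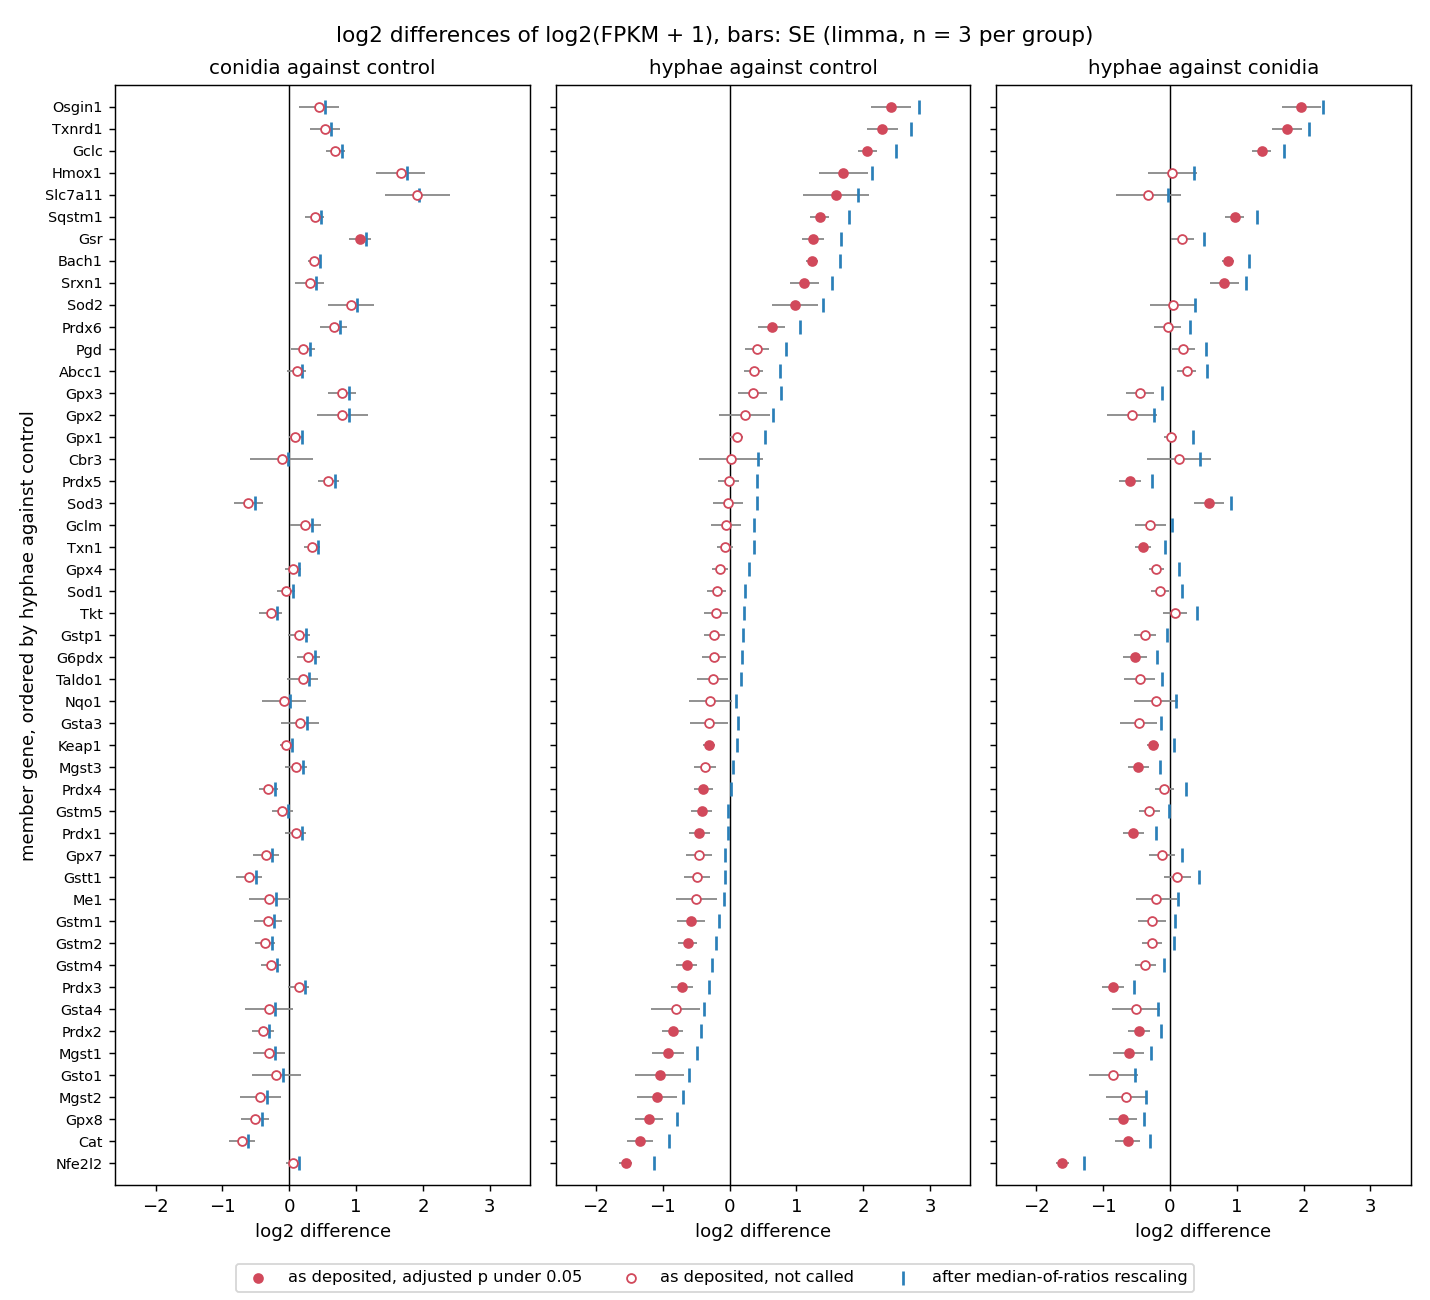
log2 differences of log2(FPKM + 1) for the 49 members in the 3 comparisons, with SE bars (limma, n = 3 per group); filled points have adjusted p under 0.05, open points do not, and blue ticks are the differences after rescaling. Rescaling moves the hyphae differences to the right, and Nfe2l2 stays the lowest row in both hyphae panels.

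Of the glutathione peroxidases, which reduce peroxides with glutathione, Gpx8 fell in hyphae-treated lungs. Gpx8, an endoplasmic reticulum member, measured 74.1, 64.5 and 57.7 FPKM in control, 41.2, 53.0 and 43.3 in conidia and 39.6, 22.4 and 23.5 in hyphae libraries 1, 2 and 3. Control libraries were highest and hyphae lowest, with no overlap among the groups. Gpx8 fell by 1.21 ± 0.21 against control (adjusted p 0.00104; rescaled -0.79) and fell by 0.71 against conidia (adjusted p 0.0187; rescaled -0.38, adjusted p 0.0928). Gpx3, the secreted plasma form, had means of 778 ± 40.0, 1395 ± 442 and 989.5 ± 93.5 FPKM (SD, n = 3); every conidia library was above every control library, but the difference of 0.79 had an adjusted p of 0.104. Gpx1, the main cytosolic form, had means of 228, 244 and 245, and Gpx4, which protects membrane lipids, 355, 369 and 321. After rescaling, Gpx1, Gpx3 and Gpx4 were called higher in hyphae against control (0.54, 0.78 and 0.29), and as deposited none of these was (0.11, 0.34 and -0.15). Gpx2, an epithelial form, had means of 60.7, 98.1 and 70.0 and Gpx7, another endoplasmic reticulum form, 13.3, 10.6 and 9.41; neither was called in any comparison on either scale.

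The 12 glutathione S-transferases, which attach glutathione to electrophiles, were lower in hyphae against control for 7 members and higher for 0, beside 50.0% and 14.9% of all genes. After rescaling 0 of 12 were called in either direction by limma, beside 29.3% of all genes lower and 30.0% higher. The 7 were Mgst2, Gsto1, Mgst1, Gstm4, Gstm2, Gstm1 and Gstm5, with deposited differences from -1.09 to -0.41, beside -0.37 for the median gene, and rescaled differences from -0.70 to -0.03. Mgst2, a microsomal form, measured 26.6, 16.4 and 11.5 FPKM in control, 8.72, 14.5 and 15.2 in conidia and 8.25, 5.93 and 8.73 in hyphae libraries 1, 2 and 3. Hyphae libraries were all below control and overlapped conidia. Mgst2 fell by 1.09 ± 0.30 (adjusted p 0.0115), and rescaled it differed by -0.70 (adjusted p 0.0561). In control, conidia and hyphae, Mgst1 had means of 400.2, 319 and 214 FPKM, Gsto1 342, 294 and 176 and Gstm1 510, 405 and 347. Gstm2 had means of 161, 125 and 105, Gstm4 9.17, 7.45 and 5.57 and Gstm5 10.8, 9.92 and 7.92. The 5 not called against control were Gsta3 (means 131, 147 and 108), Gsta4 (167, 129.7 and 99.9), Gstp1 (311, 344 and 267), Gstt1 (67.6, 45.9 and 48.2) and Mgst3 (62.8, 67.2 and 48.8). Mgst1 and Mgst3 fell in hyphae against conidia as deposited (-0.62 and -0.47) but not rescaled (-0.28 and -0.14), where Gstt1 was higher (0.44, adjusted p 0.0473). The Gstm, Gsta and Gstp families hold near-identical copies, and the sources used here do not say how their reads were shared, so single members of these families are uncertain.

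Several of these transferases are abundant in airway epithelium, and airway markers were also lower in hyphae-treated lungs. The summed FPKM of 10 club cell markers was 69538 to 127735 in control, 48341 to 65683 in conidia and 33035 to 41556 in hyphae libraries, and 7 of the 10 were lower in hyphae against control (4 rescaled). For 10 ciliated cell markers the sums were 1525 to 1972, 699 to 1238 and 667 to 1167 FPKM, and all 10 were lower in hyphae against control (8 rescaled). Both marker sums were below every control library in conidia as well. The summed FPKM of the 12 transferases overlapped control both in conidia and in hyphae, where library 1 held 1949 FPKM against 1822 in control library 2. No marker of either list was at 0 throughout a group, and their part in the transferase results was not tested. In a list of 16 other tested transferases and related proteins, 1 rose and 9 fell (2 and 4 rescaled). Of all tested genes, 14.9% rose and 50.0% fell in hyphae against control (30.0% and 29.3% rescaled). The riser was Alox5ap, a leukocyte protein of leukotriene synthesis (1.26, means 28.0, 75.8 and 73.8 FPKM, adjusted p 0.00896). Gstt3 fell by 1.46 (means 32.2, 22.5 and 11.8; adjusted p 0.000945) and Gstm3 fell by 0.95 (means 1.82, 1.18 and 0.473; adjusted p 0.0142).

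Catalase and the mitochondrial superoxide dismutase went opposite ways in hyphae-treated lungs. Cat, the peroxisomal enzyme that splits hydrogen peroxide, measured 201, 195 and 169.8 FPKM in control, 99.7, 144 and 105 in conidia and 96.4, 65.5 and 63.4 in hyphae libraries 1, 2 and 3. The groups did not overlap, with control highest and hyphae lowest. Cat fell by 1.34 ± 0.19 in hyphae against control (adjusted p 0.000386; rescaled -0.91, adjusted p 0.00106) and fell by 0.63 against conidia (adjusted p 0.0202; rescaled -0.30, adjusted p 0.128); the conidia difference was -0.71 (adjusted p 0.107). Sod2, the manganese enzyme of mitochondria that inflammatory cytokines induce, measured 39.7, 29.3 and 31.6 FPKM in control, 104, 38.3 and 66.2 in conidia and 48.2, 66.9 and 91.4 in hyphae libraries 1, 2 and 3. Hyphae libraries were above all controls, and conidia library 2 lay within the control range while conidia libraries 1 and 3 did not. Sod2 rose by 0.98 ± 0.35 in hyphae (adjusted p 0.0328; rescaled 1.40), a call lost without control library 2 or 3 or hyphae library 2 or 3 (largest adjusted p 0.107), and the conidia difference was 0.93 (adjusted p 0.181). Sod3, the extracellular enzyme, had means of 264 ± 35.1, 178 ± 61.1 and 259 ± 36.5 FPKM (SD, n = 3) and was higher in hyphae than in conidia (0.59, adjusted p 0.0472; rescaled 0.92), a call lost in 7 of the 9 fits that leave out a library. Sod1, the cytosolic copper and zinc enzyme, had means of 516, 499 and 454 and was not called in any comparison on either scale.

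Neutrophil markers, like several of the members, were higher after fungal challenge. Against control, 11 of 14 neutrophil markers rose in hyphae and 4 of 14 in conidia (0 rescaled), and none was at 0 throughout a group. Conidia library 2, with the lowest neutrophil sum of its group, was the lowest conidia library for 10 of the 11 members whose conidia libraries were all above control (the exception was Gpx2), and for 21 of all 49 members. Hyphae library 1, with the lowest neutrophil sum of its group, was the lowest hyphae library for 9 of the 11 members that rose in hyphae against control (the exceptions were Bach1 and Prdx6). It was the highest hyphae library for 12 of the 15 members that fell, and for 29 of all 49. Hyphae library 1 also had the highest median FPKM of its group over all genes, 4.05 against 3.6 and 3.68. For conidia library 2 the median was likewise the highest of its group, 6.05 against 5.21 and 5.68. These counts use deposited values and have no share over all genes beside them. The called or separated members were picked from the same values, so the counts are no result about the members. Lcn2 weighs heavily in the neutrophil sums, and the part of neutrophil RNA in these values was not tested. Monocyte markers (13) had sums of 284 to 306, 369 to 420 and 240 to 378 FPKM, with 0 higher and 5 lower in hyphae against control (2 and 3 rescaled), and alveolar macrophage markers (12) had sums of 353 to 787, 494 to 775 and 348 to 750, with 0 higher and 2 lower (3 and 0 rescaled).

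Without conidia library 2, 9 members rose in conidia against control in the limma fit and 4 fell: Bach1, Hmox1, Slc7a11, Gclc, Gsr, Prdx5, Prdx6, Gpx3 and Sod2 rose, and Prdx4, Gstt1, Sod3 and Cat fell. The count of all genes called in that comparison went from 95 to 1503, and its split by direction is not given here. That fit is 1 of 9 that leave out a library and was singled out with the values known. With all libraries, 1 member was called. Among the members as deposited, 11 had every conidia library above every control library and 6 had every one below, beside 12.0% and 17.8% of all genes. In hyphae against control 15 lay wholly above and 13 wholly below (17.3% and 53.4% of all genes), and in hyphae against conidia 7 and 11 did (14.8% and 45.1%).

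Of 5 NADPH supply enzymes, which feed the reductases, 1 was called on deposited values, G6pdx in hyphae against conidia. G6pdx, the first enzyme of the pentose phosphate pathway, had means of 24.9, 30.3 and 21.2 FPKM in control, conidia and hyphae, and Pgd, the second NADPH-producing enzyme of that pathway, 93.4, 106 and 122. Pgd was called higher in hyphae against control after rescaling (0.84, adjusted p 0.00293) but not as deposited (0.41, adjusted p 0.0641). G6pdx fell in hyphae against conidia (-0.52, adjusted p 0.0337), and rescaled it differed by -0.20 (adjusted p 0.339). Taldo1 and Tkt, which interconvert the pathway's sugars, had means of 146, 164 and 122 and 65.2, 52.9 and 56.5 and were not called. Me1, malic enzyme, measured 78.3, 39.7 and 42.8 FPKM in control, 43.2, 41.4 and 39.6 in conidia and 37.0, 23.8 and 52.2 in hyphae libraries 1, 2 and 3, with control library 1 and hyphae library 3 the highest of their groups. Those 2 libraries also had the highest sums of 10 adipose markers (919 and 402 FPKM, against 12 to 219 elsewhere) and of 9 cardiac muscle markers (1716 and 2473, against 123 to 580), and the part of such tissue in the Me1 values was not tested. In the list of 13 other NADPH and pentose phosphate genes, 1 rose and 10 fell in hyphae against control (2 and 8 rescaled). The shares of all tested genes were 14.9% and 50.0% (30.0% and 29.3% rescaled). H6pd, the hexose 6-phosphate dehydrogenase of the endoplasmic reticulum, rose by 0.89 (means 41.9, 67.5 and 78.1 FPKM; adjusted p 0.00122), while Idh1, cytosolic isocitrate dehydrogenase, fell by 1.32 (means 42.5, 38.3 and 17.0; adjusted p 0.00103) and Rpia, a pentose isomerase, fell by 1.15 (means 15.0, 13.9 and 6.21; adjusted p 4.31e-05).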

How the data were processed

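Lung RNA from 9 libraries (3 control, 3 conidia, 3 hyphae) was analysed from gene-level FPKM values that the authors deposited, per the file headers. The submitters' processing notes name HISAT, Bowtie2 and the genome build mm9; the program that computed FPKM, whether counting used strand, and how reads of near-identical copies were shared are not given in the sources used here. Depth was approximately 19900000 to 22300000 fragments per library, estimated from the steps between low FPKM values with an assumed fragment length of 150 bases. Genes that reached 1 FPKM in 3 or more libraries were tested on log2 values computed from the deposited FPKM plus a pseudocount of 1, which understates the change of low genes. All 9 libraries entered 1 limma fit (R 4.3.3, limma 3.58.1, trend and robust moderation), with 6 residual degrees of freedom and two-sided p-values adjusted by Benjamini-Hochberg over all 13761 genes; "called" means adjusted p under 0.05. The fit was tested on simulated data for each comparison, over 13761 genes. It recovered 69% to 76% of genes changed by 1 on the log2 scale and 91% to 95% of those changed by 2. In each simulation 9 or 10 unchanged genes were also called. Noise was independent and normal, and 100 genes were changed at each size. The simulations held no shift of the median gene and no deviating library, so these rates need not hold for the real data.

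The members, pathway lists and marker lists were chosen with earlier results of these data known. Values in every library are given for Nfe2l2, Keap1, Bach1 and 8 classical targets (Nqo1, Hmox1, Srxn1, Gclc, Gclm, Slc7a11, Txnrd1 and Gsr), and for the 4 called members with the largest positive and the 4 with the largest negative difference in each comparison; Sod2 and Me1 were added after their values were seen. Other pathway genes are named from each list as the 2 called highest and the 2 called lowest in hyphae against control. Alternatives were median-of-ratios rescaling, rescaling to TPM, a pseudocount of 0.1, no filter, moderation without the robust option, fits of 2 groups only, a replicate block, and leaving out each library.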

Additional observations from a re-analysis of the deposited data

How the results depend on the processing

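Rescaling by median-of-ratios factors changed the counts of called members: in hyphae against control from 11 higher and 15 lower to 17 and 4, in hyphae against conidia from 7 and 12 to 11 and 2, and in conidia against control from 1 higher to 0. Among members called as deposited, rescaling reversed the sign of Keap1 (0.10 in hyphae against control, 0.0597 against conidia) and Prdx4 (0.0208 in hyphae against control). Over all 49 members, those with a positive difference in hyphae against control went from 17 to 32. In conidia against control the members called higher numbered 2 with TPM, 0 with no filter, 2 with only the groups compared and 0 with the replicate block, and all genes called went from 95 to 47 rescaled, 183 with TPM, 43 with no filter and 57 with the block. Leaving out each library in turn gave, for conidia against control, 0 to 9 members higher, 0 to 4 lower and 0 to 1503 genes called. Those fits gave 9 to 13 members higher and 10 to 19 lower in hyphae against control, and 6 to 7 higher and 3 to 20 lower in hyphae against conidia. The causes of these changes were not tested. In the full fit as deposited, 14.9% of all genes rose and 50.0% fell in hyphae against control. For hyphae against conidia the shares were 12.7% and 42.5%. Such shares are not given here for the fits that leave out a library or add the block. Member counts from those fits are therefore no result particular to the members. Same-numbered libraries did not regularly deviate together (2 of 9 pairs over 0.1, from -0.31 to 0.43), beside 7 of 18 pairs with other numbers. With 3 libraries per group these correlations cannot settle whether the numbers pair the libraries. The block left 12 members higher and 15 lower in hyphae against control and 7 and 11 in hyphae against conidia. Of members called in hyphae against conidia, 8 of 19 kept their call in all 16 alternatives: Nfe2l2, Bach1, Sqstm1, Srxn1, Osgin1, Gclc, Txnrd1 and Prdx3.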

Other observations

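Summed over families, which mixes levels of unlike genes and was done after the values were seen, the 4 glutathione supply and recycling genes held 170, 132 and 168 FPKM in control libraries 1, 2 and 3, 299, 217 and 273 in conidia, and 499, 533 and 536 in hyphae. The groups did not overlap, and Gclc made up most of each sum. The 12 glutathione S-transferases held 2663, 1822 and 2088 FPKM in control, 1765, 1889 and 2068 in conidia, and 1949, 1175 and 1180 in hyphae, so hyphae library 1 lay within the range of the control group. The 6 peroxiredoxins held 1078, 822 and 1034 FPKM in control, 1416, 1101 and 1440 in conidia, and 1257, 1015 and 1038 in hyphae; conidia lay above control and hyphae overlapped both. For the 6 glutathione peroxidases the sums were 1502, 1455 and 1541 in control, 2119, 1736 and 2631 in conidia, and 1636, 1646 and 1707 in hyphae, with Gpx3 the most abundant. All sums are deposited FPKM and no test was run on them.

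Another ratio within libraries was that of Hmox1 to Blvrb, biliverdin reductase B. It was 0.601, 1.04 and 0.720 in control, 2.43, 1.37 and 1.61 in conidia and 1.20, 7.04 and 6.42 in hyphae libraries. Hyphae library 1 lay below all 3 conidia libraries, and hyphae libraries 2 and 3 lay above them.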
